A study of Mus musculus with 4 samples.

Results

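The genes described here encode the interleukin-1 (IL-1) and interleukin-36 (IL-36) cytokines of skin, their natural antagonists and their receptors. They were taken by gene symbol from a list of 10 names: Il1a, Il1b, Il1rn, Il1r1, Il1r2, Il1f5, Il1f6, Il1f8, Il1f9 and Il1rl2. The IL-36 genes appear under their older Il1f symbols. All 10 were found among the 24346 gene symbols of the data, and all 10 had a mean level high enough to be tested.

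The study asked whether 7-ketocholesterol (7KC), an oxidised form of cholesterol eaten with the diet, worsens the psoriasis-like dermatitis that imiquimod cream causes in mice with steatohepatitis. RNA of dorsal skin was sequenced from male C57BL/6 mice that were 8 weeks old when the diet began. In the Cont-IMQ group (2 libraries), mice ate a steatohepatitis-inducing diet rich in fat, cholesterol and bile salt (NASH diet) for 3 weeks and then received imiquimod cream. In the 7KC-IMQ group (2 libraries), the same diet also contained 7KC, and the cream followed in the same way. The sample labels give 1 day of cream for both groups, whereas the series description speaks of daily application for the 7KC-IMQ group. Both groups therefore share the NASH diet and imiquimod, and no library of untreated, vehicle-treated or normally fed skin enters the comparison. Nothing states that the libraries came from separate animals, so the p-values measure the spread between these samples, which may be technical.

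IL-1α and IL-1β signal through the receptor encoded by Il1r1 together with the accessory chain encoded by Il1rap. The antagonist encoded by Il1rn occupies the same receptor without signalling, and the decoy receptor encoded by Il1r2 binds IL-1 but has no signalling domain. IL-36α, IL-36β and IL-36γ (Il1f6, Il1f8 and Il1f9) act in a parallel way through the receptor encoded by Il1rl2, opposed by the IL-36 receptor antagonist (Il1f5), and keratinocytes are a main source of these cytokines in psoriasis-like skin.

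Levels are given as FPKM, which scales the fragments of a gene by transcript length and by the mapped total of the library, and so is a level per length. The deposited values hold no read totals. Steps in the values of low genes, read with an assumed fragment length of 200 bases, gave an estimated depth of about 15170000 and 15120000 reads for Cont-IMQ replicates 1 and 2 and about 16220000 and 14960000 reads for the same replicates of 7KC-IMQ. In these libraries 74.2% to 76.8% of the low genes examined came within 0.1 of a whole read. By chance 20% would at a depth fixed beforehand. The depth was estimated from such steps, so that 20% is no measure for this share. Reads per member were estimated on the longest protein-coding transcript of each gene, which need not be the model behind the FPKM. At this depth the estimates ran from 195 for Il1b in Cont-IMQ replicate 1 to 11399 for Il1f5 in the same library.

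The tissue label was borne out by its defining genes. The summed FPKM of 8 interfollicular keratinocyte markers was 24049 and 16170 in the Cont-IMQ libraries and 18672 and 20695 in the 7KC-IMQ libraries. Krt10 was the most abundant, although Krt14 exceeded it in 7KC-IMQ replicate 2 (5700 against 5553 FPKM). For this and every other marker list, the most abundant gene is the one with the highest mean over the 4 libraries. Skeletal muscle markers were also present (7399 and 7150 against 5946 and 7222 FPKM summed over 8 genes, Acta1 most abundant). Cont-IMQ replicate 2 stood apart from the other libraries in the markers of growing hair follicles. Their summed FPKM over 11 genes was 109 in Cont-IMQ replicate 1 and 1472 in Cont-IMQ replicate 2, against 415 and 366 in the 7KC-IMQ libraries, with Krt71 the most abundant. All 11 were highest in Cont-IMQ replicate 2 and lowest in Cont-IMQ replicate 1, and the ratio between those libraries ran from 3.64 to 41.3 (median 10.7). An FPKM of 0 is not read as absence of RNA here, because the ribosomal protein gene Rpl26 was listed at 0 in Cont-IMQ replicate 2 and at 7.23, 10.3 and 3.67 FPKM in the other libraries.

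In dorsal skin of 7KC-IMQ mice, both IL-1 agonist genes, the IL-36 agonist gene Il1f9, the antagonist gene Il1rn and the receptor gene Il1r1 had higher levels than in Cont-IMQ skin without overlap between the groups. The decoy receptor gene Il1r2 was lower without overlap. The remaining members, Il1f5, Il1f6, Il1f8 and Il1rl2, overlapped. No difference passed the test across all genes. In whole tissue, fewer cells of a type and less RNA per cell cannot be told apart.

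The 5 members that were higher without overlap stand beside 23.9% of the 15896 genes tested, and the 1 member that was lower beside 22.9%. By limma with Benjamini-Hochberg adjustment over all genes tested, none of the 10 members had an adjusted p under 0.05, and their adjusted p ran from 0.352 to 0.981. The same test called 1 gene among all those tested (0.00629%), the microRNA gene Mir24-2. Its listed values were 549 and 555 FPKM for Cont-IMQ, and 0 for each 7KC-IMQ library. A listed 0 is not read as absence of RNA here, and how reads were assigned to Mir24-2 was not tested. At an unadjusted limma p under 0.05, 5 members were higher and 0 lower, beside 7.5% and 5.47% of all genes. The median difference of the members in log2(FPKM + 1) was 0.38, and that of all genes was -0.01. Over all genes, 3801 were higher and 3634 lower without overlap, and the split became 2385 to 5109 when each library was rescaled to the same FPKM sum. The members gave 5 higher and 1 lower under that rescaling too. Without Cont-IMQ replicate 2, members gave 5 higher and 2 lower, beside 38.9% and 38.6% of all genes in that setting, with a median difference of 0.21, and limma called 5 genes over the whole table. It called 11 without Cont-IMQ replicate 1. Members gave 8 higher without 7KC-IMQ replicate 1, beside 35.8% of all genes in that setting, and 3 lower without 7KC-IMQ replicate 2, beside 33.5%. A group of 1 library overlaps less easily, so these shares are larger for all genes too.

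**Figure D1:**
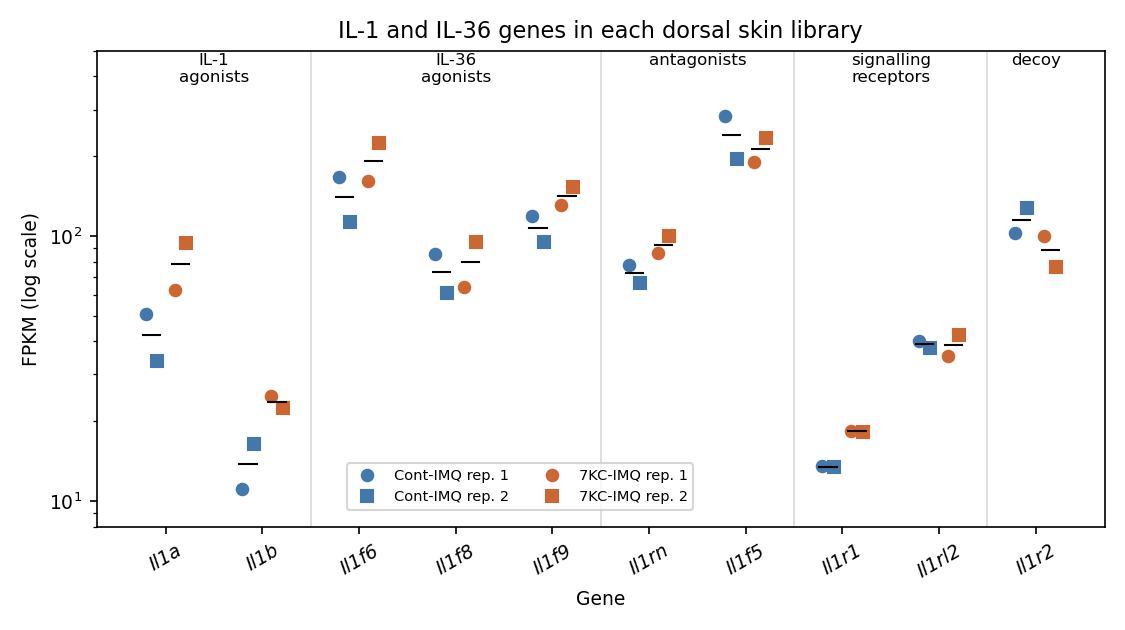
FPKM (log axis) of the 10 genes in each of the 4 libraries, ordered by role; circles are replicate 1, squares replicate 2, blue Cont-IMQ, orange 7KC-IMQ, and black bars the group means. The groups do not overlap for Il1a, Il1b, Il1f9, Il1rn, Il1r1 and Il1r2.

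Il1a encodes IL-1α, which keratinocytes hold ready and release on injury. Its level was 50.6 and 33.9 FPKM in Cont-IMQ skin and 62.7 and 94.1 FPKM in 7KC-IMQ skin, replicate 1 before replicate 2 here and for every gene. The groups did not overlap, and the libraries also differed widely within each group. The group means were 42.2 ± 11.8 and 78.4 ± 22.2 FPKM (SD, n = 2 each). The difference in log2(FPKM + 1) was 0.88 (SE 0.27, 95% interval 0.15 to 1.60), with a limma adjusted p of 0.365. It was 0.59 both without Cont-IMQ replicate 2 and without 7KC-IMQ replicate 2, and up to 1.17 with another library left out.

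Il1b encodes IL-1β, which myeloid cells make as a precursor that caspase-1 cleaves. It was the lower of the IL-1 agonists, at 11.1 and 16.4 FPKM in Cont-IMQ skin and 24.9 and 22.4 FPKM in 7KC-IMQ skin. Here the 7KC-IMQ libraries lay close together and the Cont-IMQ libraries apart. The group means were 13.8 ± 3.77 and 23.7 ± 1.71 FPKM (SD, n = 2 each). The difference was 0.76 on the log2 scale (SE 0.19, 95% interval 0.25 to 1.28), with a limma adjusted p of 0.356, and it ran from 0.50 to 1.03 as each library was left out in turn. Il1b was among the genes the study had measured in this skin by another method, so its direction here is not independent evidence.

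The Il1a and Il1b genes lie on the minus strand of mouse chromosome 2 (build GRCm38), at chr2:129299610-129309972 and chr2:129364570-129371139. Their promoters are shown because these genes had the largest differences among the members, and they were chosen after the values were seen. The sequences come from RefSeq (GRCm38.p6), read 5′ to 3′ on the gene strand from 250 bases before to 50 bases after the annotated start, at chr2:129309923-129310222 for Il1a and chr2:129371090-129371389 for Il1b. Capitals mark matches to the motifs searched.
Il1a: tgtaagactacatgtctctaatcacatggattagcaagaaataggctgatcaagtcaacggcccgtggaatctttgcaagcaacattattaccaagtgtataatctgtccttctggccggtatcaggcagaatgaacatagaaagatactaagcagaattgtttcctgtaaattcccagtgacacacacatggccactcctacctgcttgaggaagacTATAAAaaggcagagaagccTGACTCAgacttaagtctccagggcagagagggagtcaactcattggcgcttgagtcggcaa
Il1b: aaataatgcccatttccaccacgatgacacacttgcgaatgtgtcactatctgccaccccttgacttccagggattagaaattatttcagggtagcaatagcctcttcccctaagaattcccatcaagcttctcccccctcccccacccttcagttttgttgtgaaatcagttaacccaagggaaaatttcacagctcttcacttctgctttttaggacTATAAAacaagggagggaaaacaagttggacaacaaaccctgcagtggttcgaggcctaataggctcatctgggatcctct
The motifs were the NF-κB consensus, the AP-1 motif TGANTCA and the C/EBP motif TTGCNNAA, each on both strands, and the TATA box TATAAA on the gene strand. A TATAAA began 32 bases before the start of Il1a and 31 bases before that of Il1b, and TGACTCA, an AP-1 match, began 12 bases before the start of Il1a. Such matches are descriptions of letters and not of bound sites. Of 32851 mouse promoter windows of this length, 8.46% held the NF-κB consensus, 7.81% the AP-1 motif, 10.8% the C/EBP motif and 8.32% the TATA box. Windows were found for 9 of the 10 members (13 windows in all, since some genes have several starts); the exception was Il1f6. Among the other members, Il1rn and Il1f8 held an AP-1 match, Il1f5, Il1rl2 and Il1r1 a C/EBP match, and another start of Il1r1 an NF-κB match. No searched motif was found in 5 of the 13 windows. These were the windows of Il1r2 and Il1f9, windows 2 and 3 of Il1rn and window 2 of Il1f5.

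Il1f9 encodes IL-36γ and was the IL-36 agonist gene whose groups did not overlap. Its level was 119 and 95.2 FPKM in Cont-IMQ skin and 131 and 153 FPKM in 7KC-IMQ skin. The 7KC-IMQ libraries lay above the Cont-IMQ libraries, though by a small step between Cont-IMQ replicate 1 and 7KC-IMQ replicate 1. The difference was 0.41 on the log2 scale (SE 0.14, 95% interval 0.03 to 0.79; limma adjusted p 0.372), and 0.25 to 0.57 as each library was left out, lowest without Cont-IMQ replicate 2. Il1f9 lies at chr2:24186476-24193568 on the plus strand. Its promoter window (chr2:24186226-24186525, RefSeq, GRCm38.p6, gene strand) is shown for comparison with those of the IL-1 agonists, and has no capitals because no match was found.
Il1f9: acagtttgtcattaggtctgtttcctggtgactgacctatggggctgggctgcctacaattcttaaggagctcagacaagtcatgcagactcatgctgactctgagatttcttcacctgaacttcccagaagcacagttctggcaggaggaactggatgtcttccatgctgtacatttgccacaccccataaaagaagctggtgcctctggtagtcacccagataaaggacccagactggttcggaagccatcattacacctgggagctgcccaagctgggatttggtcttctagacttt

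Il1f6, which encodes IL-36α, was the most abundant IL-36 agonist gene, at 168 and 113 FPKM in Cont-IMQ skin and 161 and 224 FPKM in 7KC-IMQ skin. The groups overlapped because Cont-IMQ replicate 1 exceeded 7KC-IMQ replicate 1. The difference was 0.46 on the log2 scale (SE 0.25, 95% interval -0.20 to 1.13; limma adjusted p 0.506), and 0.18 to 0.74 as each library was left out, lowest without Cont-IMQ replicate 2 and highest without Cont-IMQ replicate 1. Il1f8, which encodes IL-36β, stood at 85.2 and 60.9 FPKM in Cont-IMQ skin and 64.4 and 94.5 FPKM in 7KC-IMQ skin. The spread within each group was larger than the step between the group means. Its difference of 0.11 (SE 0.25; limma adjusted p 0.878) turned to -0.13 without Cont-IMQ replicate 2 and to -0.16 without 7KC-IMQ replicate 2, and was 0.35 without Cont-IMQ replicate 1 and 0.39 without 7KC-IMQ replicate 1. The 95% interval, -0.54 to 0.77, does not show that Il1f8 was alike in the groups. The difference was 0.03 after rescaling to the same FPKM sum and 0.04 after quantile normalization.

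Among the antagonists, Il1rn was at 77.6 and 66.7 FPKM in Cont-IMQ skin and at 85.9 and 99.7 FPKM in 7KC-IMQ skin. It was higher without overlap, by 0.36 on the log2 scale (SE 0.12, 95% interval 0.04 to 0.67; limma adjusted p 0.365). Il1rn lies at chr2:24336853-24351494 on the plus strand. The agonist genes Il1a, Il1b and Il1f9 were also higher without overlap, and the promoter window of Il1rn is shown for that reason. The window is that of its first listed start (chr2:24336610-24336909, gene strand, same source). It holds an AP-1 match that begins 141 bases before the start, in capitals.
Il1rn: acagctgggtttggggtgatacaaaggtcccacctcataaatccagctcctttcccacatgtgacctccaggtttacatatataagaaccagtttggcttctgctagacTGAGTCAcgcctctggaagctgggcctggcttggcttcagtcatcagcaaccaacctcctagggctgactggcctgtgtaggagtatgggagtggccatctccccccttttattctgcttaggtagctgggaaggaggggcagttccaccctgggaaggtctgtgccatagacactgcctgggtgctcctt
The IL-36 receptor antagonist gene Il1f5 was the most abundant member, at 284 and 196 FPKM in Cont-IMQ skin and 191 and 234 FPKM in 7KC-IMQ skin. The groups overlapped. Its difference was -0.16 on the log2 scale (SE 0.21, 95% interval -0.72 to 0.40; limma adjusted p 0.783), and it was 0.11 without Cont-IMQ replicate 1 and -0.43 without Cont-IMQ replicate 2. It was -0.24 both after rescaling to the same FPKM sum and after quantile normalization.

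**Figure D2:**
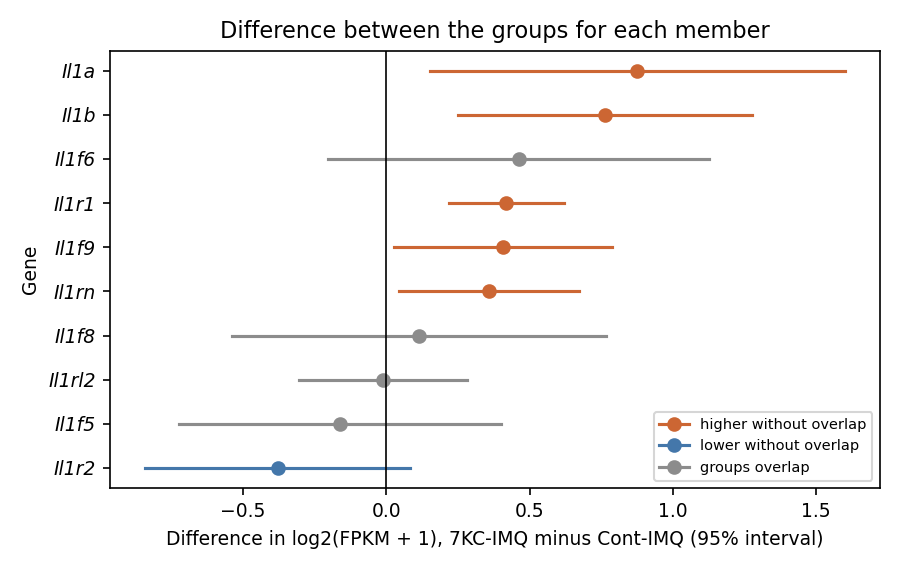
Difference between the groups in log2(FPKM + 1), 7KC-IMQ minus Cont-IMQ, for each gene; points are limma estimates from 2 libraries a group and lines their 95% intervals, before any adjustment for the number of genes. The estimates run from 0.88 for Il1a to -0.38 for Il1r2, and the intervals of Il1a, Il1b, Il1r1, Il1f9 and Il1rn lie above 0.

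Because FPKM is a level per length, the antagonist and agonist genes were also set against each other within each library. The ratio of Il1f5 to the summed IL-36 agonist genes (Il1f6, Il1f8 and Il1f9) was 0.765 and 0.728 in the Cont-IMQ libraries and 0.535 and 0.495 in the 7KC-IMQ libraries. The ratios were close within each group and did not overlap between groups, although Il1f5, Il1f6 and Il1f8 overlapped when taken alone. The ratio was 1.45-fold lower in the 7KC-IMQ group, a difference of -0.54 in log2 (exact two-sided permutation p = 0.333, the smallest p that 2 libraries against 2 can give). It ran from -0.59 to -0.48 as each library was left out in turn. As a share of the summed FPKM of these 4 genes, Il1f5 made up 43.3% and 42.1% in Cont-IMQ and 34.8% and 33.1% in 7KC-IMQ. Il1f6 made up 25.5% and 24.3% against 29.4% and 31.8%, so its share was higher without overlap where its level was not. The share of Il1f9 was 18.1% and 20.5% against 23.9% and 21.7%, and that of Il1f8 stayed between 11.8% and 13.4% in every library.

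The ratio of Il1rn to Il1b gave no such separation. It was 7.00 and 4.06 in the Cont-IMQ libraries and 3.46 and 4.44 in the 7KC-IMQ libraries. Cont-IMQ replicate 1 was high and the other libraries lay together. The log2 difference was -0.44 (exact two-sided permutation p = 0.667), and it was -0.05 without Cont-IMQ replicate 1. The ratios no longer overlapped without Cont-IMQ replicate 2 (-0.84) or without 7KC-IMQ replicate 2 (-0.62).

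**Figure D3:**
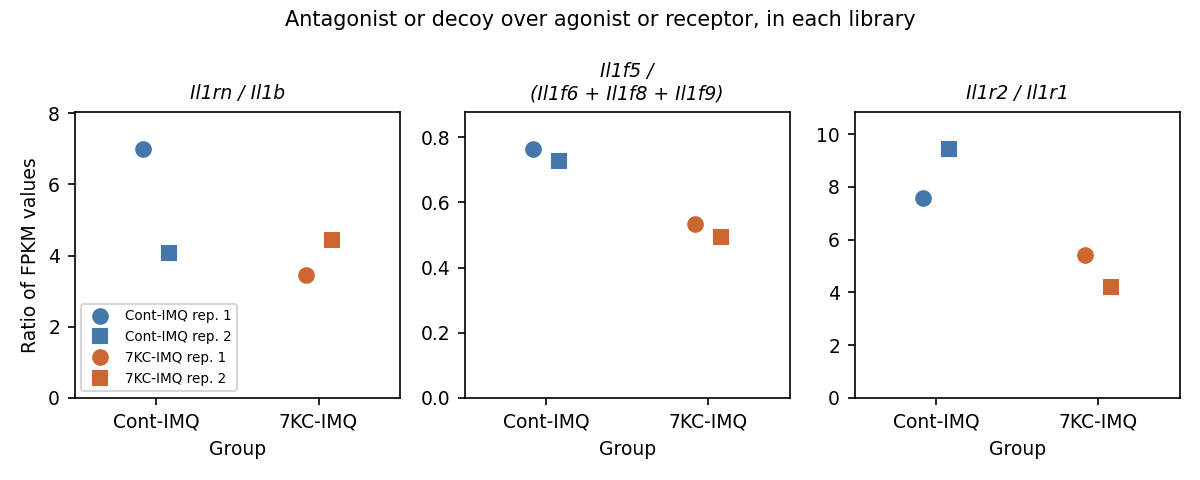
Ratios of FPKM values in each library (linear axes from 0) for Il1rn to Il1b, Il1f5 to the sum of Il1f6, Il1f8 and Il1f9, and Il1r2 to Il1r1; each point is 1 library. The groups are apart in the middle and right panels, where the 7KC-IMQ libraries lie lower, and overlap in the left panel.

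Il1r1 encodes the signalling receptor of IL-1 and had the closest replicates of all members. Its level was 13.5 FPKM in both Cont-IMQ libraries and 18.4 and 18.3 FPKM in 7KC-IMQ skin. The difference of 0.42 on the log2 scale (SE 0.08, 95% interval 0.22 to 0.62) had the smallest limma adjusted p among the members, 0.352. It kept a value between 0.41 and 0.42 as each library was left out in turn.

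Il1r2, the decoy receptor gene, was at 102 and 127 FPKM in Cont-IMQ skin and at 100 and 76.6 FPKM in 7KC-IMQ skin. Cont-IMQ replicate 1 and 7KC-IMQ replicate 1 were nearly level. The difference was -0.38 on the log2 scale (SE 0.17, 95% interval -0.84 to 0.08; limma adjusted p 0.447), and it was -0.22 without Cont-IMQ replicate 2, -0.19 without 7KC-IMQ replicate 2, -0.53 without Cont-IMQ replicate 1 and -0.57 without 7KC-IMQ replicate 1. The ratio of Il1r2 to Il1r1 was 7.59 and 9.45 in the Cont-IMQ libraries and 5.43 and 4.19 in the 7KC-IMQ libraries. This ratio of decoy to signalling receptor was 1.77-fold lower in 7KC-IMQ skin without overlap, by -0.83 in log2 (exact two-sided permutation p = 0.333, again the smallest possible). Left-out libraries moved it between -1.01 and -0.64.

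Il1rl2, which encodes the ligand-binding chain of the IL-36 receptor, was at 40.2 and 37.6 FPKM in Cont-IMQ skin and at 35.3 and 42.2 FPKM in 7KC-IMQ skin. The groups overlapped and the group means were 38.9 ± 1.81 and 38.8 ± 4.88 FPKM (SD, n = 2 each). The difference was -0.01 on the log2 scale (95% interval -0.30 to 0.28; limma adjusted p 0.981), and its sign turned without Cont-IMQ replicate 1 (0.04) and without 7KC-IMQ replicate 1 (0.11). It was -0.09 after rescaling to the same FPKM sum and -0.06 after quantile normalization.

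Over the 4 libraries, the order of mean levels was Il1f5 (226 FPKM), Il1f6 (166), Il1f9 (125), Il1r2 (102), Il1rn (82.5), Il1f8 (76.3), Il1a (60.3), Il1rl2 (38.8), Il1b (18.7) and Il1r1 (15.9). Neighbours in this order overlapped in their library values, except Il1rl2 and Il1b, where the lowest Il1rl2 library (35.3 FPKM) lay above the highest Il1b library (24.9 FPKM). Within the groups the order changed in part. In Cont-IMQ the mean of Il1r2 (115 FPKM) lay above that of Il1f9 (107), and Il1f8 (73.1) above Il1rn (72.2). In 7KC-IMQ the mean of Il1rn (92.8 FPKM) lay above that of Il1r2 (88.3). Cont-IMQ replicate 2 was the lowest library for 6 of the 10 members, and 7KC-IMQ replicate 2 the highest for 6. Cont-IMQ replicate 2 also had the lowest sum of interfollicular keratinocyte markers and the highest sum of hair follicle markers, and the part of either in these values was not tested.

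The genes whose centred profiles of log2(FPKM + 1) were most like each member, among 9590 genes with a mean of at least 5 FPKM, are named as a description over 4 libraries. For Il1a they were Serpinb3b, Klk9 and Lce3c, with root mean square differences of 0.03 to 0.04. Serpinb3b stood at 63.9 and 42.2 FPKM in Cont-IMQ and 77.6 and 112 FPKM in 7KC-IMQ. For Il1b they were Prss53, Plscr1 and Mt2 (0.05 to 0.11), and for Il1rn Pgk1, B4galnt1 and Slc39a11 (0.005 to 0.02). The glycolytic gene Pgk1 was at 283 and 245 FPKM against 312 and 365 FPKM. For Il1f9 they were Klk11, Tmem158 and Rps6ka4, for Il1f6 Endou, Aldh3b3 and Glrx, and for Il1f8 C330022C24Rik, 3110040N11Rik and Cgref1. For Il1f5 they were Aadacl2, Ccl8 and Cxcl12. For the receptors they were Btbd19, Cdca7 and Eln (Il1r1), Dyrk2, Nid1 and Fcgrt (Il1r2), and Mylpf, Ablim1 and Usp25 (Il1rl2).

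In the genome, the members lie in groups of neighbours. Il1f8, Il1f9, Il1f6, Il1f5, Il1f10 and Il1rn follow each other in this order on the plus strand of chromosome 2, at chr2:24153161-24351494 (198.3 kb). Members of this row did not share a direction: Il1f9 and Il1rn were higher without overlap, Il1f6, Il1f8 and Il1f5 overlapped, and Il1f10, which encodes IL-38, was lower without overlap at 6.19 and 8.68 FPKM in Cont-IMQ and 5.97 and 3.85 FPKM in 7KC-IMQ. Psd4, the next gene after Il1rn, overlapped at 13.1 and 11.3 against 11.5 and 11.1 FPKM. Ckap2l, which lies next to Il1a, was higher without overlap, at 8.53 and 10.36 against 11.72 and 10.43 FPKM (0.21, and 0.09 to 0.34 as each library was left out). The receptor genes Il1r2, Il1r1, Il1rl2, Il1rl1, Il18r1 and Il18rap form a row on the plus strand of chromosome 1, at chr1:40074079-40551705 (477.6 kb). There the neighbours went apart, Il1r2 lower and Il1r1 higher without overlap, and neither difference passed the test across all genes. Il1a and Il1b each overlap the exons of a gene on the other strand, Gm14023 (0.50 to 0.59 FPKM) and Il1bos (0.55 to 1.07 FPKM). How strand entered the authors' counting is not given in the sources used here, so reads of these pairs may not be separated. Stretches of 75 bases, the read length, were shared with another gene in 7.95% of Il1a, with Gm14023, and in 4.89% of Il1f9, and in none of the other members.

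The other genes of the pathway came from 4 lists, whose counts stand beside the 23.9% of all genes that were higher and the 22.9% that were lower without overlap. Of 9 tested genes among the other IL-1 family ligands and receptors, 5 were higher and 2 lower without overlap, and their median difference was 0.17. None of the 9 had a limma adjusted p under 0.05, while 3 were higher and 1 lower at an unadjusted p under 0.05. Of all genes, 7.5% were higher and 5.47% lower at that unadjusted threshold. Il33, an alarmin of epithelial cells, was at 40.1 and 32.3 FPKM in Cont-IMQ and 52.3 and 81.8 FPKM in 7KC-IMQ, a difference of 0.84 that ran from 0.53 without 7KC-IMQ replicate 2 to 1.16 without 7KC-IMQ replicate 1. Il18, a cytokine matured by caspase-1 as IL-1β is, went the other way, at 76.8 and 53.1 FPKM against 46.9 and 42.5 FPKM (-0.51; -0.24 without Cont-IMQ replicate 1 and -0.77 without Cont-IMQ replicate 2). Il1f10 was also lower (-0.52), at -0.26 without 7KC-IMQ replicate 2 and -0.78 without 7KC-IMQ replicate 1. Il1rap, the accessory chain that both receptors need, was at 13.0 and 11.3 against 13.4 and 14.2 FPKM (0.17), a difference of 0.08 without Cont-IMQ replicate 2 and 0.27 without Cont-IMQ replicate 1, and of 0.10 after rescaling to the same FPKM sum. The receptor genes Il18r1 (0.29) and Il18rap (0.26) and the IL-18 binding protein gene Il18bp (0.22) were also higher without overlap. Il18bp was at 0.14 after that rescaling, and the low genes Il18r1 and Il18rap were at 0.44 and 0.69 with a pseudocount of 0.1. Il1rapl1 and Il1rapl2 were listed at 0 in every library. Without Cont-IMQ replicate 2 the median of this list was 0.08.

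Of 17 tested genes for maturation and release of the cytokines, 5 (29.4%) were higher and 3 (17.6%) lower without overlap, close to the shares of all genes, with a median of -0.04 that was 0.02 without Cont-IMQ replicate 1, -0.07 without Cont-IMQ replicate 2 and -0.12 without 7KC-IMQ replicate 2. Limma gave none of the 17 an adjusted p under 0.05. At an unadjusted limma p under 0.05, 1 was higher and 1 lower, where 7.5% and 5.47% of all genes were. Capn2, a calpain protease, was at 72.0 and 64.1 FPKM in Cont-IMQ and 86.2 and 98.0 FPKM in 7KC-IMQ (0.43), although 22.2% of its 75-base stretches are shared with Gm37885. The inflammasome sensor gene Nlrp3 was low, at 0.56 and 0.34 against 0.98 and 0.69 FPKM (0.34, and 0.22 without 7KC-IMQ replicate 1). The study had also measured Nlrp3 in this skin by another method, so its direction here is not independent evidence. Nlrp1a (0.21), the caspase gene Casp4 (0.17) and the pore-forming Gsdmd (0.09) were higher without overlap, and the cathepsin gene Ctss (-0.22), Nlrc4 (-0.22) and Dfna5 (-0.10) lower. Casp4 was at 0.09 after rescaling to the same FPKM sum. With a pseudocount of 0.1 the low genes Nlrp3, Nlrp1a, Nlrc4 and Dfna5 were at 0.77, 0.32, -0.64 and -0.19. Gsdmd overlapped after the rescaling (0.01) and Dfna5 after quantile normalization (-0.04), and Dfna5 was at -0.04 without Cont-IMQ replicate 1 and -0.17 without Cont-IMQ replicate 2.

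Of 23 tested genes that carry the receptor signal, 5 (21.7%) were higher and 2 (8.70%) lower without overlap, with a median of -0.01. None had a limma adjusted p under 0.05. At an unadjusted limma p under 0.05, 2 were higher and 0 lower, where 7.5% and 5.47% of all genes were. Myd88, the adaptor that both receptors use, was at 53.9 and 49.8 FPKM in Cont-IMQ and 70.4 and 67.8 FPKM in 7KC-IMQ (0.41). The NF-κB subunit genes Nfkb1 (0.24) and Rela (0.09) and the inhibitory kinase gene Irak3 (0.13) were higher without overlap, as was Mapk8 (0.05). Once libraries were rescaled to the same FPKM sum, the groups overlapped for Rela (0.01), Irak3 (0.05) and Mapk8 (-0.02), and Rela also overlapped after quantile normalization (0.04), where Irak3 was at 0.08 and Mapk8 at 0.10. As each library was left out, Rela ran from 0.04 (without Cont-IMQ replicate 1) to 0.13 (without Cont-IMQ replicate 2) and Mapk8 from 0.02 to 0.08. The adaptor genes Tab1 and Tab2 were lower, each at -0.12, with -0.06 for Tab1 without 7KC-IMQ replicate 2 and -0.07 for Tab2 without 7KC-IMQ replicate 1 as the values nearest 0, and -0.18 and -0.16 as those farthest from it. They were at -0.19 and -0.20 after rescaling to the same FPKM sum. The count of higher genes was 8 without Cont-IMQ replicate 1, 8 without Cont-IMQ replicate 2 and 9 without 7KC-IMQ replicate 1, beside 38.6%, 38.9% and 35.8% of all genes in those settings. The median was 0.03 without Cont-IMQ replicate 1 and -0.06 without Cont-IMQ replicate 2.

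Genes that IL-1 and IL-36 are known to induce in skin lay mostly in 1 direction: 21 of 25 tested were higher without overlap and 0 lower, with a median difference of 1.16. None had a limma adjusted p under 0.05 (the smallest was 0.265). At an unadjusted limma p under 0.05, 18 were higher and 0 lower, beside 7.5% and 5.47% of all genes. The study displayed several of these genes in its own account of this skin, so the direction of the list is not independent evidence, and other cytokines induce many of them too. The neutrophil-linked alarmin gene S100a8 was at 1267 and 1037 FPKM in Cont-IMQ and 3608 and 6775 FPKM in 7KC-IMQ (2.11), and its partner S100a9 at 1293 and 1063 against 3586 and 7010 FPKM (2.10). Defb3, a beta-defensin gene, was at 24.7 and 8.93 against 62.2 and 93.2 FPKM (2.27). The cytokine genes Il19 (8.71 and 5.49 against 32.6 and 35.4 FPKM, 2.14) and Il23a (2.15 and 1.82 against 7.92 and 8.13 FPKM, 1.60) completed the largest differences. Without Cont-IMQ replicate 2, 25 genes were higher, beside 38.9% of all genes in that setting, with a median of 1.02.

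**Figure D4:**
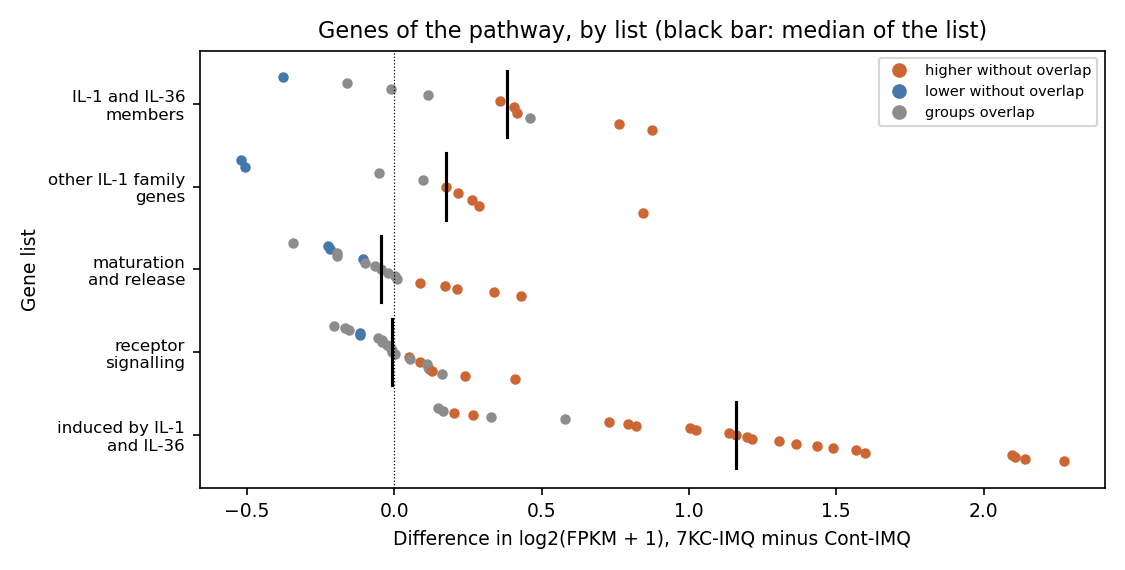
Difference between the groups in log2(FPKM + 1), 7KC-IMQ minus Cont-IMQ, for each tested gene of the members and the 4 pathway lists; each point is 1 gene, spread vertically by rank, coloured by whether the groups overlap, and black bars are list medians. The medians are 0.38, 0.17, -0.04, -0.01 and 1.16 from top to bottom.

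Markers of the cells that could make or receive these cytokines are given beside the members. Of 13 tested neutrophil markers, 7 (53.8%) were higher and 2 (15.4%) lower without overlap, where 23.9% and 22.9% of all genes were. Their summed FPKM was 48.2 and 65.3 in Cont-IMQ and 63.3 and 63.7 in 7KC-IMQ, so the sums overlapped. Among the higher markers, Trem1 (0.14 and 0.05 against 0.58 and 0.23 FPKM) and Camp (0.34 and 0 against 0.63 and 0.68 FPKM) lay near the floor. The most abundant gene by mean over the libraries, Cxcr2, was at 13.4 and 15.0 against 20.2 and 23.0 FPKM. Fpr1, named after its values were seen, lay above Cxcr2 in each Cont-IMQ library. It was lower without overlap, at 14.8 and 22.5 against 14.4 and 13.8 FPKM. The symbol Ly6g was not matched. Of 14 macrophage and monocyte markers, 1 (7.14%) was higher and 3 (21.4%) lower, and the sums were 1047 and 1263 against 1001 and 1063 FPKM (C1qb most abundant). Dendritic and Langerhans cell markers summed to 1125 and 775 against 1101 and 798 FPKM over 9 genes, with Cd74 the most abundant and the groups overlapping.

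T cell markers summed to 86.3 and 76.5 against 96.9 and 99.7 FPKM over 10 genes, without overlap, and Thy1 made up most of this; without it the sums were 23.7 and 19.4 against 18.9 and 16.2 FPKM, lower in 7KC-IMQ. Mast cell markers summed to 105 and 101 against 85.3 and 89.7 FPKM over 5 genes (Mcpt4 most abundant), and endothelial markers to 43.9 and 49.8 against 37.7 and 35.9 FPKM over 5 genes (Pecam1), both lower in 7KC-IMQ without overlap. Sebaceous gland markers were higher without overlap, at 390 and 340 against 435 and 447 FPKM over 5 genes (Elovl3); without Elovl3 the sums were 262 and 229 against 260 and 272 FPKM and overlapped. Sums of fibroblast markers (3406 and 2446 against 3178 and 2788 FPKM, Dcn), adipocyte markers (973 and 1412 against 1394 and 951 FPKM, Fabp4) and red blood cell markers (29.3 and 7.42 against 7.32 and 26.4 FPKM, Hba-a1) overlapped. No list had a matched gene at 0 in every library. The part of these cell types in the values of the members was not tested.

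**Figure D5:**
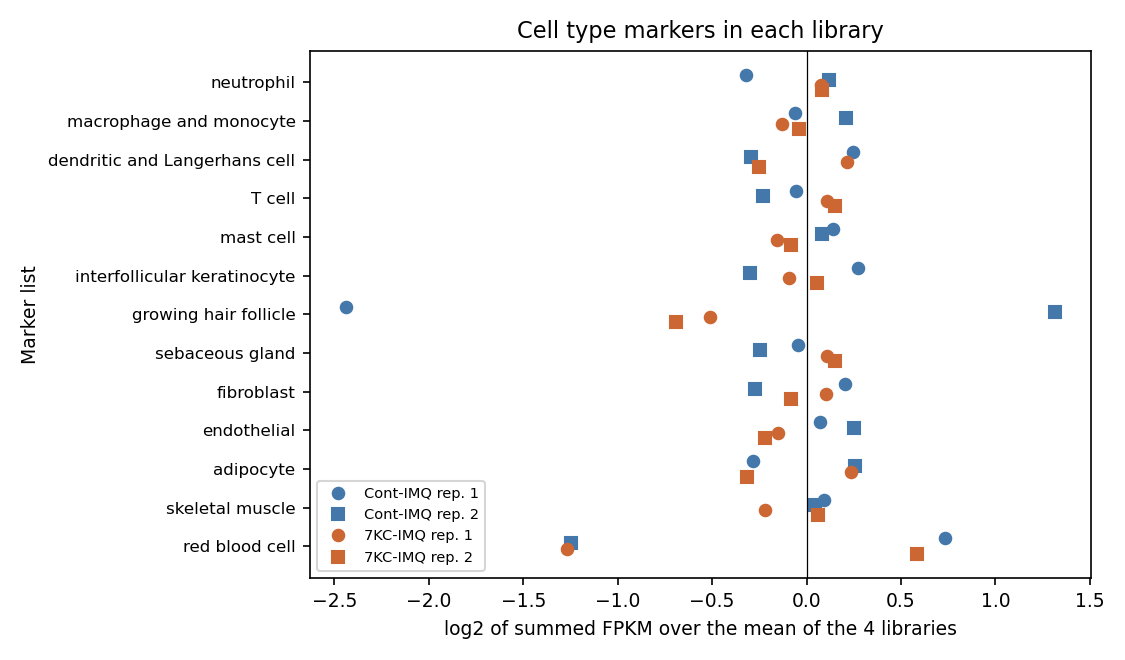
Summed FPKM of each marker list in each library, as log2 of the sum over its mean in the 4 libraries; circles are replicate 1, squares replicate 2, blue Cont-IMQ, orange 7KC-IMQ. The widest spread is that of the growing hair follicle markers, from 109 FPKM in Cont-IMQ replicate 1 to 1472 FPKM in Cont-IMQ replicate 2.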

How the data were processed

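Total RNA of dorsal skin was extracted with a miRNeasy kit and sequenced from stranded mRNA libraries in 75-base single reads. The deposited values are FPKM per gene symbol, made by the authors and given as 1 file per library. The submitters' processing notes list TopHat2 2.1.1, Bowtie2 2.2.8, SAMtools 0.1.18, Cuffdiff 2.2.1 and build mm10, while the study's methods name Cufflinks and other versions. The annotation, the strand setting and the handling of reads with several positions are not given in the sources used here. FPKM depends on transcript models and on library composition, and it hides the counting error of low genes.

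Here, log2(FPKM + 1) was compared between the groups with limma 3.58.1 (R 4.3.3; eBayes with a trend, two-sided) for the 15896 genes whose mean FPKM reached 0.1, and p-values were adjusted by Benjamini-Hochberg over all of them at a threshold of 0.05. The fit was tested on simulated data. No count model was used. Differences are on the log2(FPKM + 1) scale, which understates those of low genes. Ratios were compared on the log2 scale by exact two-sided permutation tests (SciPy 1.17.1). Alternatives were other pseudocounts, filters, scalings and variance models, the replicate number as a block, and leaving out each library.

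Members and lists were chosen with earlier results of these data known. The genes named are every member; of each pathway list up to 5 with the largest differences in each direction without overlap, and those at 0 everywhere or absent; of each marker list the most abundant gene and those at 0 everywhere; for each member with a mean of at least 1 FPKM the 3 genes with the nearest profile; Rpl26; and genes next to members on chromosome 2. Outside this rule, Il1rl1 was named for its place among the receptor genes. Gm14023, Il1bos and Gm37885 were named for sequence or exons they share with a named gene. Krt14, Mir24-2, Ly6g, Fpr1, Trem1, Camp and Ckap2l were named singly. All of these were named after their values were seen. GENCODE M21 (GRCm38) held 23310 of the 24346 symbols.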

Additional observations from a re-analysis of the deposited data

How the results depend on the processing

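With 2 libraries a group, exact tests cannot reach 0.05, and Il1b, with an estimated 195 to 467 reads a library, is the member that depth limits most. No member and no named gene of the lists passed the limma threshold under any alternative run (smallest adjusted p 0.102 and 0.0793). Of 120 values for members under alternatives, 115 kept their direction and 5 turned: Il1f5 without Cont-IMQ replicate 1 (0.11, its highest; lowest -0.43), Il1f8 without Cont-IMQ replicate 2 (-0.13) and without 7KC-IMQ replicate 2 (-0.16; highest 0.39), and Il1rl2 without Cont-IMQ replicate 1 (0.04) and without 7KC-IMQ replicate 1 (0.11; lowest -0.14). Of 321 values for named list genes 1 turned, Mapk8 at -0.016 after rescaling to the same FPKM sum. Rescaling also ended the separation of the groups for Gsdmd, Irak3 and Rela, and quantile normalization for Dfna5 and Rela. The causes were not tested.

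Limma called 2 genes with a pseudocount of 0.1 and 71 with no filter, against 1, and 1 to 11 as each library was left out (11 without Cont-IMQ replicate 1, 5 without Cont-IMQ replicate 2). Leaving out libraries gave 5 to 8 members higher and 1 to 3 lower without overlap. It gave medians of 0.082 to 0.23 for the other IL-1 family genes, -0.12 to 0.019 for maturation and release, and -0.062 to 0.033 for signalling, with 5 to 9 signalling genes higher. A group left with 1 library overlaps less easily, and its library is assumed to vary like the others. The median of the induced genes was 1.40 with a pseudocount of 0.1. The causes were not tested.

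How the replicates were numbered is not given in the sources used here. Differences between replicates 1 and 2 correlated across 15896 genes with r = 0.065 between the groups. Genes are not independent replicates, so this value cannot tell whether libraries with the same number were processed together. With the replicate block, limma still called 1 gene, 1754 genes had an unadjusted p under 0.05 in place of 2061, and the median difference of the members was 0.38.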
